A study of Homo sapiens with 10 samples.

Results

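Osteoblast and skeletal lineage genes were followed in U2OS cells, a human osteosarcoma line, that is, a line from a bone tumor. The 7 genes RUNX2, MSX2, SCX, TWIST1, BMPR1B, ALPL and SPARC were found by their symbols among 60671 genes in the table. The rule uses no measured value, but the list was drawn up with earlier results of these data known. RNA was sequenced from 3 libraries of EBSS+VBL+Gln+Ars cells, 3 of EBSS+VBL+Ars cells, 3 of Ars cells and 1 of untreated cells. Both EBSS+VBL groups spent 18 h in EBSS, a buffered glucose solution that holds no amino acids (AAs) and was used here with no serum, while vinblastine (VBL) took down their microtubules. Glutamine (Gln) was present in that medium for the glutamine-recovered cells, EBSS+VBL+Gln+Ars, and absent for the AA-starved cells, EBSS+VBL+Ars. Arsenite (Ars), an oxidative stressor, then followed for 50 min, and Ars cells received it with neither EBSS nor VBL. The effects of missing AAs, missing serum and VBL cannot be told apart. All cells came from 1 tumor line, and whether the 3 libraries of a group came from separate cultures was not given, and p-values therefore cover only how far these libraries differed from each other, which may be technical variation.

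Osteoblasts are the cells that lay down and mineralize bone matrix. RUNX2 is the transcription factor that commits mesenchymal precursors to this fate, and it acts with homeodomain factors such as MSX2 and is held back by the bHLH factor TWIST1. Bone morphogenetic proteins (BMPs) signal to the same factors through receptors such as BMPR1B, while ALPL and SPARC act at the cell surface and in the matrix that the committed cells make, and SCX marks the related tendon lineage.

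RefSeq (GRCh38.p14) entries for the bases before the transcription start were held for 5 of the 7 genes. The stretches before the first annotated transcript base are shown for RUNX2, ALPL and SPARC, the genes with the clearest changes among these 5, because RUNX2 binds the runt motif, bHLH factors such as SCX bind E-boxes and homeodomain factors such as MSX2 bind the homeodomain motif. The 4 motifs, on both strands, were the runt motif ACCACA, the E-box CANNTG, the homeodomain motif TAATTA and the AP-1 motif TGANTCA, and matches are in capitals.
RUNX2, chr6:45328080-45328156, plus strand: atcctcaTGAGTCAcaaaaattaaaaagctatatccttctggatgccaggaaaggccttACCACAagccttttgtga
ALPL, chr1:21509173-21509396, plus strand: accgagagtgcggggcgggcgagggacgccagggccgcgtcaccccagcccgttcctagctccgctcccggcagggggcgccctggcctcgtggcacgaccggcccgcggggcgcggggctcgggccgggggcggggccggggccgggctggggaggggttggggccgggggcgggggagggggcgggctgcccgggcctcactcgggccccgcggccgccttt
SPARC, chr5:151686976-151687165, minus strand: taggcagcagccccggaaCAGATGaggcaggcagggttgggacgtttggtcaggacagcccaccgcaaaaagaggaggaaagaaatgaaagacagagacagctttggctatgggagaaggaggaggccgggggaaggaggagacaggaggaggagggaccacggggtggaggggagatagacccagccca

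The 77 bases before RUNX2 held 1 runt motif and 1 AP-1 motif, which 3.65% and 1.82% of 35116 promoter windows of that length held. The 190 bases before SPARC held 1 E-box, as did 52.9% of windows of that length, and the 224 bases before ALPL matched none of these letters. A match describes the letters only, and no binding was measured.

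Each gene's value was a normalized count, the reads on the gene divided by a size factor of the library, and libraries held 3538017 to 7019842 reads on genes. Genes were tested where their values averaged 10 or more across the 9 replicated libraries, which held for 6 of the 7 genes and for 12971 genes of the whole table. TWIST1 did not pass. Changes were tested with limma on log2(normalized count + 1), and a call needed both an adjusted p under 0.05 and a difference of 1.5-fold or more. This log2 scale understates the change of genes with few reads. Over all genes the calls split into 2791 higher and 2757 lower in EBSS+VBL+Ars against Ars cells, 1096 higher and 1105 lower in EBSS+VBL+Gln+Ars against EBSS+VBL+Ars cells, and 2139 higher and 1985 lower in EBSS+VBL+Gln+Ars against Ars cells. When every library was scaled to the same total (equal totals), the median over all genes moved to -0.16, 0.28 and 0.12 on the log2 scale in these comparisons, and the splits became 2076 and 3617, 2836 and 330, and 2630 and 1593. The first comparison shares its EBSS+VBL+Ars libraries with the second and its Ars libraries with the third. In bulk RNA, fewer cells of a kind and less RNA per cell cannot be told apart.

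The label of an osteoblast lineage was borne out only in part. Of 10 osteoblast markers, RUNX2, ALPL, SPARC and COL1A1, the main chain of bone collagen, passed the filter, while IBSP was at 0 in every library and SP7, the factor downstream of RUNX2, and BGLAP (osteocalcin) stayed at or below 1.10 normalized counts. COL1A2 (group means of 1.90 to 5.97 normalized counts), SPP1 (4.73 to 9.66) and PHEX (0.69 to 1.80) did not pass either. The summed level of the 10 markers was 8395 to 8856 normalized counts in EBSS+VBL+Gln+Ars libraries, 7357 to 8103 in EBSS+VBL+Ars libraries, 15186 to 15904 in Ars libraries and 6600 in the untreated library, and most of it was COL1A1 and SPARC. Under 10 normalized counts in every library were 4 of these 10 markers. The same held for 7 of 8 osteoclast genes, 7 of 9 muscle genes, 5 of 8 adipocyte genes and 12 of 12 blood cell genes. Over the groups, MMP9 (osteoclast) averaged 286 to 501 and TNNT1 (muscle) 383 to 641 normalized counts, both above RUNX2 in every group. PPARG and CEBPA (adipocyte) also passed the filter.

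Per kilobase of exon, SPARC was the most abundant of the 7 genes in every group. Its mean level was 729 normalized counts per kilobase in EBSS+VBL+Gln+Ars cells, 567 in EBSS+VBL+Ars cells, 1041 in Ars cells and 440 in the untreated library. ALPL came second in glutamine-recovered and starved cells, at 98.2 and 78.0 normalized counts per kilobase, whereas SCX came second in Ars cells, at 202 against 20.0 for ALPL. Between libraries, the levels per kilobase of RUNX2, MSX2 and SCX overlapped in glutamine-recovered cells, those of MSX2 and SCX in starved cells, and those of RUNX2, MSX2 and ALPL in Ars cells. BMPR1B was the lowest gene with reads, at 2.13 to 3.88 normalized counts per kilobase over the group means.

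In EBSS+VBL+Ars against Ars cells, both sequenced after arsenite, 3 of the 6 genes tested were called, beside 42.8% of all genes tested. No EBSS+VBL cells without arsenite were sequenced, so an effect of starvation with VBL and a changed response to arsenite cannot be told apart. ALPL rose, as did 21.5% of all genes, and SCX and SPARC fell, as did 21.3%. RUNX2, MSX2 and BMPR1B were not called.

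**Figure D1:**
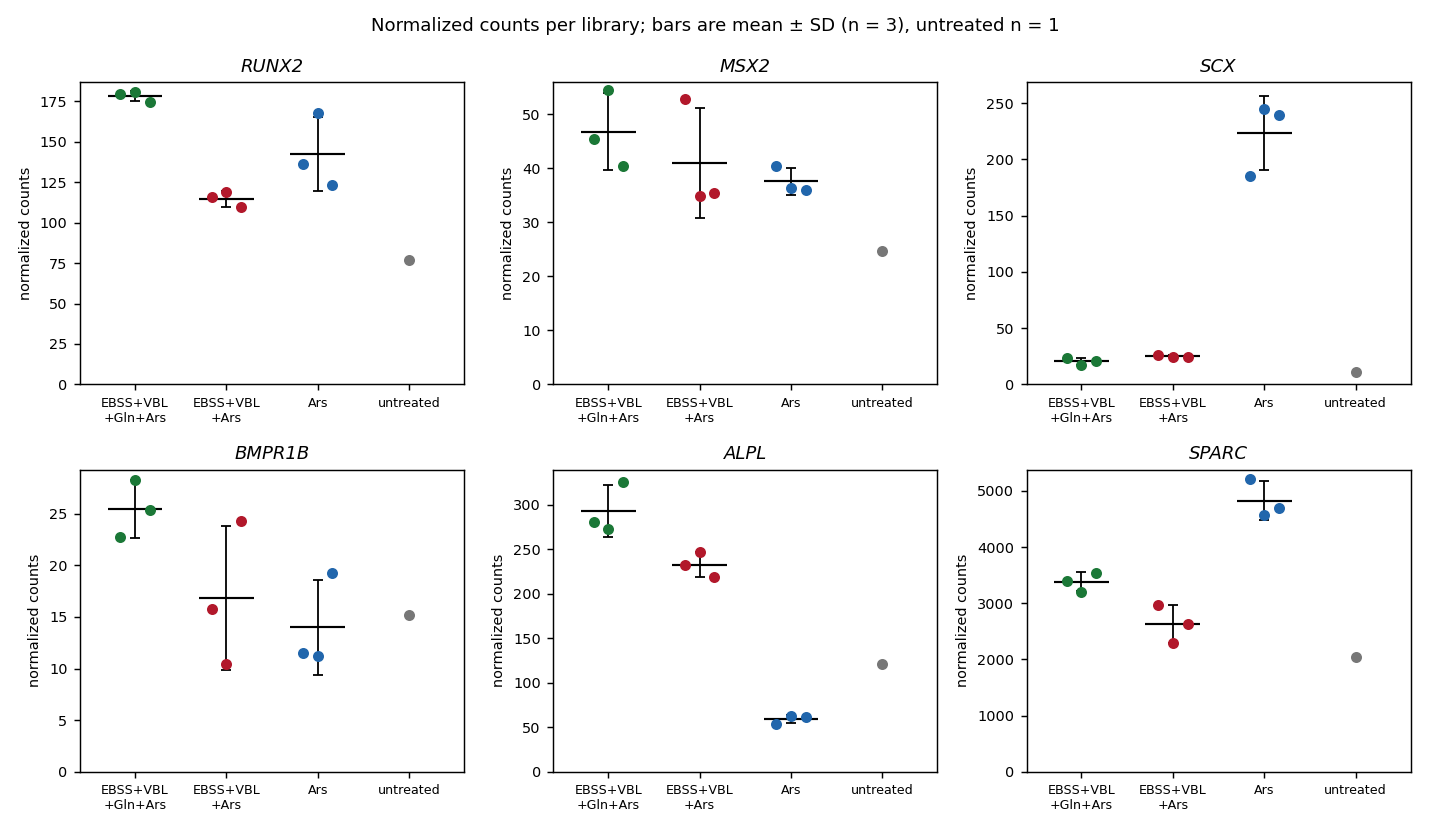
Normalized counts (linear axes from 0) of the 6 genes with reads, 1 point per library, by group, with bars for the mean ± SD (n = 3). ALPL lay between 219 and 325 in the 6 EBSS+VBL libraries and between 54.0 and 62.4 in Ars libraries, and SCX was high in Ars libraries only.

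RUNX2 is the runt-domain factor at the head of the osteoblast program. It lies at chr6:45328157-45664349 on the plus strand (hg38). RUNX2 had 116, 119 and 109 normalized counts in EBSS+VBL+Ars libraries, against 136, 168 and 123 in Ars libraries. The starved libraries lay closely together and just below the lowest Ars library. At a log2 fold change of -0.30 (SE 0.14, limma adjusted p = 0.071), the difference was not called.

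MSX2 is a homeobox factor of skull and limb development and a target of BMP signals. MSX2, at chr5:174724582-174730896 on the plus strand, had 52.8, 34.9 and 35.4 normalized counts in EBSS+VBL+Ars libraries, against 40.5, 36.3 and 36.1 in Ars libraries. The groups overlapped, with starved replicate 1 above all others. A log2 fold change of 0.10 (SE 0.21, limma adjusted p = 0.72) had a 95% confidence interval of -0.35 to 0.55, and its sign turned under equal totals (-0.08) and without that library (-0.09).

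SCX (scleraxis), the bHLH factor of tendon precursors, changed most among the 7 genes. SCX had 25.8, 24.4 and 24.3 normalized counts in EBSS+VBL+Ars libraries, from 23, 14 and 22 reads, against 186, 245 and 240 in Ars libraries, from 275, 263 and 286 reads. Every starved library was far below every Ars library. This gave a log2 fold change of -3.11 (SE 0.19, 95% confidence interval -3.51 to -2.70, limma adjusted p = 1.3e-10), which over the alternatives stayed between -3.28 and -2.93.

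SCX lies at chr8:144266453-144268481 on the plus strand, within the span of BOP1, a ribosome biogenesis gene on the opposite strand, with which it shares 0 exon bases. Whether reads were counted by strand was not given in the sources used here, so it is unknown whether reads of BOP1 pre-mRNA were kept apart from those of SCX. BOP1 averaged 6525 ± 1180 normalized counts in EBSS+VBL+Ars cells and 4093 ± 475 in Ars cells (SD, n = 3 each), a log2 fold change of 0.66 (SE 0.14, limma adjusted p = 0.00055) with the opposite sign to that of SCX. MROH1, which ends 4526 bases before SCX, also rose, with a log2 fold change of 1.75 (SE 0.13, limma adjusted p = 1.2e-09). HSF1, 23110 bases beyond SCX and the gene of the main heat shock factor, had a log2 fold change of 0.45 (SE 0.11, limma adjusted p = 0.0027), which is under 1.5-fold. DGAT1, a triglyceride synthesis gene 46103 bases beyond SCX, averaged 562 ± 83 normalized counts in EBSS+VBL+Ars cells and 637 ± 113 in Ars cells (SD, n = 3 each), a log2 fold change of -0.18 (SE 0.15, limma adjusted p = 0.32) that was not called. None of these 4 neighbors was called lower, by limma, in this comparison.

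**Figure D2:**
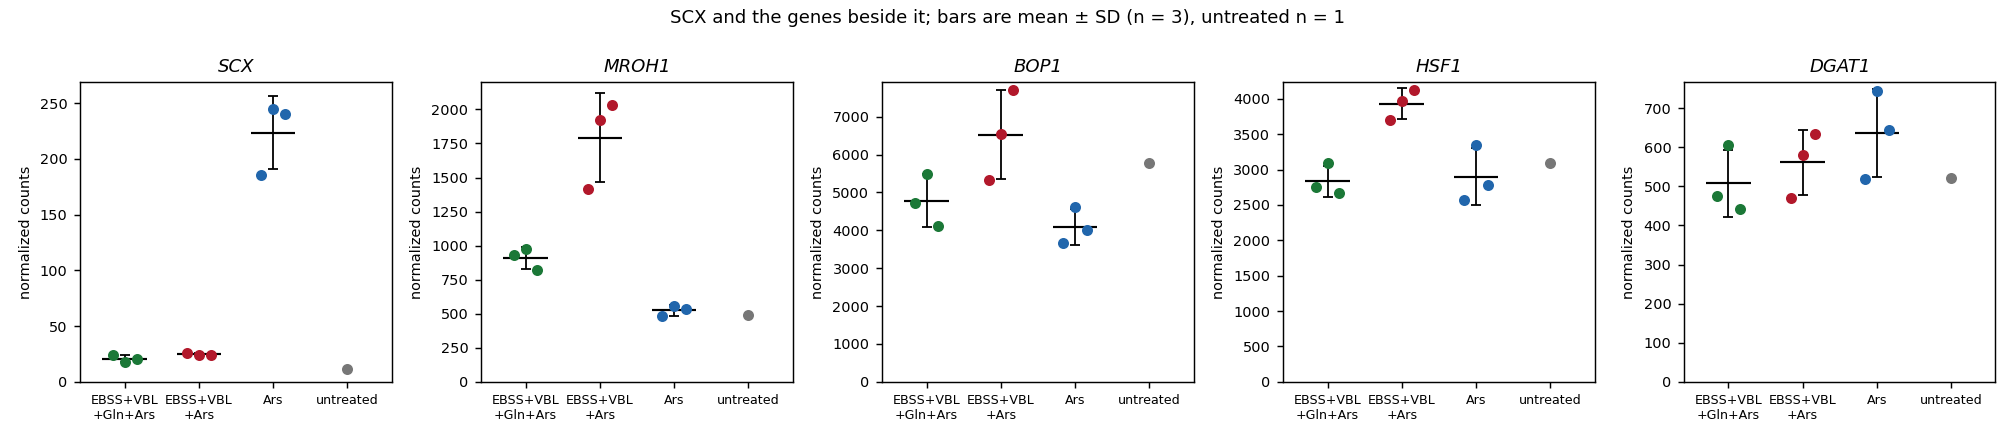
Normalized counts (linear axes from 0) of SCX and of the 4 genes that lie beside it, 1 point per library, by group, with bars for the mean ± SD (n = 3). SCX was 186 to 245 in Ars libraries and at most 25.8 in all others, whereas MROH1 and BOP1 had their highest group means in EBSS+VBL+Ars cells.

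TWIST1, the bHLH factor that opposes RUNX2, had 0 reads in all 10 libraries. It lies at chr7:19020991-19117636 on the minus strand, and 7.06% of its exon bases are shared with a long noncoding RNA on the other strand. A count of 0 allows up to 3 reads, which correspond to 2.03 to 5.24 normalized counts depending on the library. Its transcripts were thus not detected at this depth. TWIST2, its closest relative, averaged 25.6 ± 6.0 normalized counts in EBSS+VBL+Ars cells and 22.1 ± 2.2 in Ars cells (SD, n = 3 each), with a limma adjusted p of 0.54.

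BMPR1B is a type I BMP receptor, which phosphorylates SMAD proteins once a BMP has bound. BMPR1B, at chr4:94757955-95158448 on the plus strand, had 15.7, 10.5 and 24.3 normalized counts in EBSS+VBL+Ars libraries, against 11.5, 11.2 and 19.3 in Ars libraries. Only 6 to 23 reads per library stood behind these values, and the groups overlapped. The log2 fold change was 0.22 (SE 0.32, limma adjusted p = 0.58) with a 95% confidence interval of -0.46 to 0.89, and it was -0.07 without starved replicate 3.

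ALPL encodes the tissue-nonspecific alkaline phosphatase, the surface enzyme that removes pyrophosphate, an inhibitor of mineral growth. ALPL, at chr1:21509397-21578410 on the plus strand, had 233, 246 and 219 normalized counts in EBSS+VBL+Ars libraries, against 54.0, 62.4 and 62.0 in Ars libraries. The groups were wide apart. ALPL thus had a log2 fold change of 1.95 (SE 0.13, 95% confidence interval 1.68 to 2.22, limma adjusted p = 3.7e-10), and it stayed between 1.77 and 2.02 over the alternatives.

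SPARC (osteonectin) is a secreted glycoprotein that binds collagen and calcium in bone matrix. SPARC, at chr5:151661096-151686975 on the minus strand, had 2970, 2286 and 2640 normalized counts in EBSS+VBL+Ars libraries, against 5218, 4568 and 4701 in Ars libraries. The highest starved library was well below the lowest Ars library. Its log2 fold change was -0.88 (SE 0.11, 95% confidence interval -1.12 to -0.64, limma adjusted p = 2.3e-06). SPARC shares 4.12% of its exon bases with the noncoding gene CLMAT3 on the other strand, which had at most 4.75 normalized counts in any library.

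In EBSS+VBL+Gln+Ars against EBSS+VBL+Ars cells, which asks what glutamine changed in starved cells, 1 of the 6 genes tested was called, beside 17.0% of all genes tested. RUNX2 rose, where 8.45% of all genes rose and 8.52% fell. Under equal totals, which put the median over all genes at 0.28, RUNX2, ALPL, BMPR1B and SPARC were called, 4 in all. Of all 12971 genes tested, 3166 were called under that setting, 2836 of them higher.

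RUNX2 had 180, 181 and 175 normalized counts in EBSS+VBL+Gln+Ars libraries, against 116, 119 and 109 in EBSS+VBL+Ars libraries. Both groups were tight, with no overlap. The log2 fold change was 0.63 (SE 0.14, 95% confidence interval 0.35 to 0.92, limma adjusted p = 0.0023), which is 1.55-fold and close to the threshold. When the trend of each library with GC content was removed, it was 0.58, under 1.5-fold, and without replicate 3 of all groups it was 0.62 with a limma adjusted p of 0.053.

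SPARC had 3400, 3201 and 3543 normalized counts in EBSS+VBL+Gln+Ars libraries, against 2970, 2286 and 2640 in EBSS+VBL+Ars libraries. All glutamine-recovered libraries were above all starved ones. The log2 fold change of 0.37 (SE 0.11, limma adjusted p = 0.020) passed the p threshold but not the fold threshold. It was 0.67 with quantile normalization, where SPARC was called (limma adjusted p = 0.0010).

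ALPL had 280, 272 and 325 normalized counts in EBSS+VBL+Gln+Ars libraries, against 233, 246 and 219 in EBSS+VBL+Ars libraries. The groups did not overlap, but the log2 fold change of 0.33 (SE 0.13, limma adjusted p = 0.067) was not called.

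BMPR1B had 22.7, 28.3 and 25.4 normalized counts in EBSS+VBL+Gln+Ars libraries, against 15.7, 10.5 and 24.3 in EBSS+VBL+Ars libraries. Starved replicate 3 lay among the glutamine-recovered libraries. The log2 fold change was 0.64 (SE 0.32, 95% confidence interval -0.04 to 1.31, limma adjusted p = 0.15).

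MSX2 and SCX were not called with glutamine. MSX2 had 45.5, 54.4 and 40.4 normalized counts in EBSS+VBL+Gln+Ars libraries, against 52.8, 34.9 and 35.4 in EBSS+VBL+Ars libraries, and the log2 fold change was 0.20 (SE 0.21, limma adjusted p = 0.51). SCX had 23.8, 17.4 and 20.6 normalized counts in EBSS+VBL+Gln+Ars libraries, against 25.8, 24.4 and 24.3 in EBSS+VBL+Ars libraries. Its log2 fold change was -0.27 (SE 0.19, 95% confidence interval -0.67 to 0.13, limma adjusted p = 0.31), and the sign turned under equal totals (0.0037) and with the GC trend removed (0.07). All glutamine-recovered libraries lay slightly below the starved ones, by less than the test could call.

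**Figure D3:**
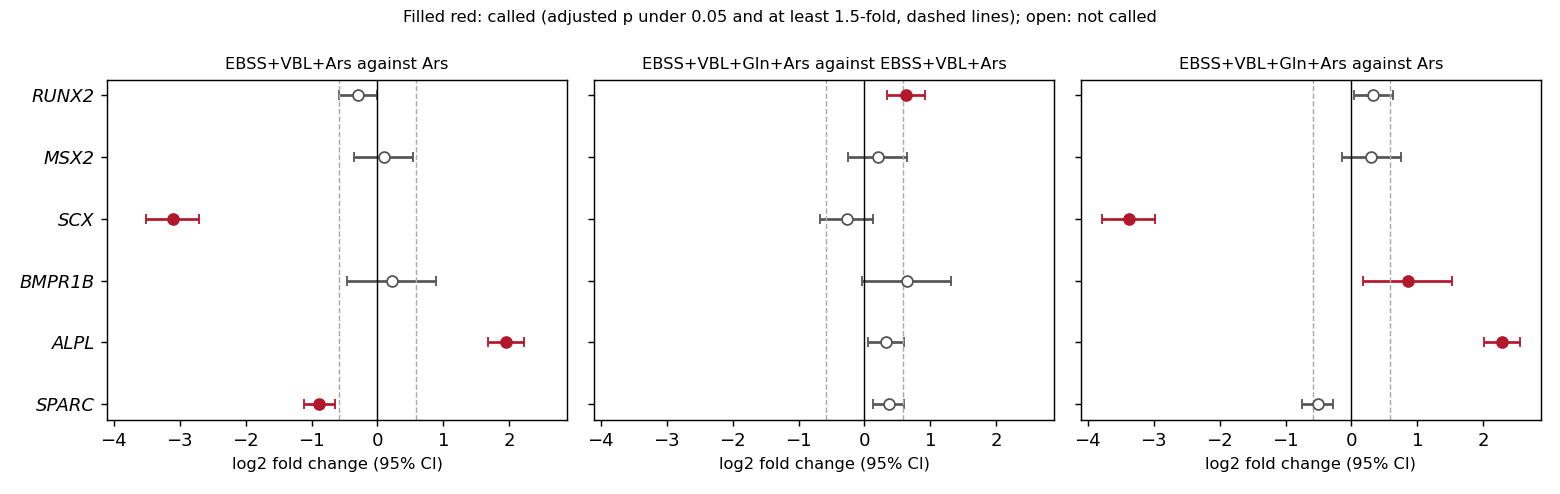
Log2 fold changes (points) with 95% confidence intervals (bars) of the 6 genes tested, from limma, in 3 panels for EBSS+VBL+Ars against Ars, EBSS+VBL+Gln+Ars against EBSS+VBL+Ars, then EBSS+VBL+Gln+Ars against Ars cells. Red points were called, open points were not, and dashed lines mark 1.5-fold: SCX, ALPL and SPARC were called in the first panel, RUNX2 in the second, and SCX, BMPR1B and ALPL in the third.

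In EBSS+VBL+Gln+Ars against Ars cells, 3 of the 6 genes tested were called, beside 31.8% of all genes tested. ALPL and BMPR1B rose, as did 16.5% of all genes, and SCX fell, as did 15.3%. ALPL, at 280, 272 and 325 normalized counts in glutamine-recovered libraries, against 54.0, 62.4 and 62.0 in Ars libraries, had a log2 fold change of 2.28 (SE 0.13, limma adjusted p = 8.6e-11). SCX, at 23.8, 17.4 and 20.6 against 186, 245 and 240 normalized counts, had a log2 fold change of -3.38 (SE 0.19, limma adjusted p = 8.0e-11).

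BMPR1B, at 22.7, 28.3 and 25.4 normalized counts in EBSS+VBL+Gln+Ars libraries, against 11.5, 11.2 and 19.3 in Ars libraries, had a log2 fold change of 0.86 (SE 0.32, limma adjusted p = 0.037). This call was lost under 10 of 21 alternatives, among them DESeq2 (adjusted p = 0.062) and the leaving out of Ars replicate 1 or 2 or of any 1 glutamine-recovered library (limma adjusted p = 0.057 to 0.12).

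SPARC, at 3400, 3201 and 3543 normalized counts in EBSS+VBL+Gln+Ars libraries, against 5218, 4568 and 4701 in Ars libraries, stayed below the Ars range. Its log2 fold change of -0.51 (SE 0.11, limma adjusted p = 0.0011) was under 1.5-fold. RUNX2 had 175 to 181 normalized counts in glutamine-recovered libraries, all above the 123 to 168 of Ars libraries, and a log2 fold change of 0.33 (SE 0.14, limma adjusted p = 0.056). MSX2 had a log2 fold change of 0.30 (SE 0.21, limma adjusted p = 0.27).

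The single untreated library allowed no test, and the ratios below describe these libraries only. The means of the 3 Ars libraries were at least 1.5-fold from the untreated library for 5 of the 6 genes with reads, as for 39.3% of all genes tested. The Ars means were higher for 4 of these genes and lower for 1, against 20.6% and 18.7% of all genes. SCX had 186, 245 and 240 normalized counts in Ars libraries, against 11.4 in the untreated library, which rests on 12 reads. The ratio was 19.6 (95% Poisson interval 11.2 to 37.9, counting error of the untreated library only).

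SPARC was 2.37 times its untreated level in Ars cells (2.27 to 2.47), with 5218, 4568 and 4701 normalized counts in Ars libraries, against 2040 in the untreated library. RUNX2 was 1.85 times its untreated level (1.49 to 2.33), with 136, 168 and 123 normalized counts in Ars libraries, against 77.0 in the untreated library. ALPL alone was lower, at 0.493 times its untreated level (0.414 to 0.591), with 54.0, 62.4 and 62.0 normalized counts in Ars libraries, against 121 in the untreated library. The untreated library thus lay below all 9 treated libraries for SCX, SPARC and RUNX2. The same held for MSX2 (24.7 normalized counts, against 34.9 in the lowest treated library). The share of all genes with the untreated library lowest was not counted, so this is a description and not a trait of these genes. For ALPL the untreated library lay between the Ars and the EBSS+VBL libraries.

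MSX2 had a ratio of 1.52 (1.04 to 2.33), with 40.5, 36.3 and 36.1 normalized counts in Ars libraries, against 24.7 in the untreated library, and it was 1.46 without Ars replicate 1. BMPR1B, with 11.5, 11.2 and 19.3 normalized counts in Ars libraries, against 15.2 in the untreated library, had a ratio of 0.919 (0.566 to 1.61). With Ars replicate 1 alone, the Ars library numbered nearest to the untreated one in the column headings, the ratio was 16.3 for SCX, 2.56 for SPARC, 1.77 for RUNX2, 1.64 for MSX2, 0.754 for BMPR1B and 0.447 for ALPL. With Ars replicate 3 alone, it was 21.0 for SCX, 2.30 for SPARC, 1.60 for RUNX2, 0.514 for ALPL, 1.46 for MSX2 and 1.27 for BMPR1B.

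The genes whose levels ran most like those of each member were sought over the 9 replicated libraries among genes that averaged 100 normalized counts or more. The correlations are a description, since the libraries share their 3 groups. SCX ran with the linker histone gene H1-1 (r = 0.995), FSCN1 (fascin) and FZD2 (r = 0.993 each). ALPL ran with CLDN1 (r = 0.996), a tight junction protein, and with the phosphate carrier SLC20A2 and the growth factor HBEGF (r = 0.995 each). SPARC ran with HACD3 (r = 0.996), ERG28 (r = 0.994) and ALYREF (r = 0.992). RUNX2 ran with KRT75 (r = 0.94), CNN1 (r = 0.927) and UBE2C (r = 0.923). BMPR1B ran with GNPTG (r = 0.93), and MSX2 with VPS26A (r = 0.86).

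Other genes of the skeletal pathways were read from 13 lists, given as counts and medians beside the 42.8% of all genes called in EBSS+VBL+Ars against Ars cells and the 17.0% called in EBSS+VBL+Gln+Ars against EBSS+VBL+Ars cells. Over all genes tested the median log2 fold change was 0.02 in the first and 0.0040 in the second. Rises and falls with starvation below are differences of EBSS+VBL+Ars from Ars cells, both after arsenite, and not from untreated cells. Some genes that fell lay at or above the single untreated library, as BMP4 (mean 135 normalized counts starved, 83.7 untreated) and BMP5 (29.2, 28.5). Others lay below it, as ID1 (117, 1963) and GLI2 (93.3, 395).

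Around RUNX2, 3 of 9 osteoblast transcription factors tested rose with starvation and 3 fell, with a list median of 0.20. ATF4, which drives late osteoblast genes and AA metabolism, had 4612 ± 205 normalized counts in EBSS+VBL+Ars cells and 1695 ± 53 in Ars cells (SD, n = 3 each), a log2 fold change of 1.44. RUNX1 (0.97) and FOSL2 (0.80, and 0.50 with quantile normalization, under 1.5-fold) also rose, and SOX4 (-1.51) fell. With glutamine, 1 of 9 was called, SOX4, which rose (0.71, limma adjusted p = 0.0042, and 0.075 without replicate 3 of all groups). Of the 12 partners and turnover factors of RUNX2, 3 rose with starvation and 2 fell. HDAC5, a deacetylase that represses RUNX2, had 1891 ± 97 normalized counts in EBSS+VBL+Ars cells and 488 ± 53 in Ars cells (SD, n = 3 each), a log2 fold change of 1.96. It was lower with glutamine, by a log2 fold change of -1.48 (limma adjusted p = 4.6e-07), as were its relative HDAC4 (-0.74) and the corepressor TLE2 (-0.88). CBFB, the partner subunit of RUNX2, had a log2 fold change of 0.57 with starvation, just under 1.5-fold.

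Around ALPL and SPARC, 3 of 7 bone matrix and mineralization genes tested rose with starvation and 2 fell, and 11 further genes of the list were too low to test. COL1A1 fell, with 4686 ± 578 normalized counts in EBSS+VBL+Ars cells and 10613 ± 742 in Ars cells (SD, n = 3 each). This was a log2 fold change of -1.18. The gene stood at 4743 ± 53 with glutamine and at 4353 in the single untreated library. The pyrophosphate exporter ANKH (1.04) and the phosphate carrier SLC20A2 (1.19) rose. ENPP1 fell (-1.73, limma adjusted p = 0.0048, and 0.0503 without replicate 3 of all groups). It had only 1.10 to 8.99 normalized counts in starved libraries. With glutamine 1 of 7 was called, BGN (biglycan), which fell by 1.19 on the log2 scale, and 2 were called without starved replicate 1. Of 5 tested relatives of SPARC and ALPL, FSTL1 (-0.89) and the placental phosphatase ALPP (-1.25) fell with starvation, and SPOCK1 (0.21) and SMOC1 (-0.13) were not called.

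Around BMPR1B, 4 of 6 BMP ligands tested fell with starvation and 1 rose, with a list median of -1.22. BMP4 (-1.52), BMP5 (-1.57) and GDF11 (-1.42) fell, while BMP2, the ligand used to induce bone, rose to 68.5 ± 5.6 normalized counts in EBSS+VBL+Ars cells, against 18.1 ± 7.4 in Ars cells (SD, n = 3 each), a log2 fold change of 1.93. BMP5 was the 1 ligand called with glutamine (1.21, limma adjusted p = 7.7e-05), against 2 without Ars replicate 1 or 2. Of 11 BMP receptors and SMADs tested, 1 rose with starvation, the coreceptor RGMB (2.22), and 1 fell, BMPR1A (-0.99), the receptor most like BMPR1B. Without Ars replicate 1 or without starved replicate 2, 4 of them were called. Of 8 inhibitors, 4 fell, among them SMAD6 (-3.97) and SMAD7 (-1.27), and NOG (noggin) rose (0.87). BMPR1A was called higher with glutamine (0.75, limma adjusted p = 0.019), a call lost without glutamine-recovered replicate 1 (0.083) or starved replicate 2 (0.076).

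Among bHLH partners and ID proteins, which keep factors such as SCX and TWIST1 from DNA, 3 of 7 tested fell with starvation. ID1 had 117 ± 7.5 normalized counts in EBSS+VBL+Ars cells and 2314 ± 279 in Ars cells (SD, n = 3 each), a log2 fold change of -4.29, and ID3 had one of -4.00. With glutamine 3 of 7 were called, ID4 (-1.56) and ID2 (-0.70) lower and ID3 (0.59) higher, but only 1 without starved replicate 1 or without starved replicate 3. Of 4 tendon genes tested, 3 rose and 1 fell. EGR1, an early response gene that also acts in tendon, had a log2 fold change of 2.25, TNC (tenascin-C) of 0.99 and MKX, a tendon homeobox factor, of 0.77, while THBS4 had -1.54. THBS4 had only 3.37 to 8.84 normalized counts in starved libraries, near the floor of 3 reads. The call of MKX was lost without Ars replicate 3 (limma adjusted p = 0.10). MKX rose again with glutamine (0.98, limma adjusted p = 0.010) and EGR1 was lower (-0.77, and -0.51 with quantile normalization, under 1.5-fold). Without glutamine-recovered replicate 3 the adjusted p of MKX was 0.0502.

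Of 9 chondrocyte genes tested, 5 fell with starvation, among them the cartilage link protein HAPLN1 (-2.76), COL11A1 (-1.20) and MATN3 (-1.11), and the other 4 were not called. Without Ars replicate 3, 3 were called. HAPLN1 (0.74, and 0.46 with the GC trend removed, under 1.5-fold) and MATN3 (0.97, with a limma adjusted p of 0.064 without replicate 3 of all groups) rose with glutamine, and SOX6, a partner of SOX9, was lower (-0.79, limma adjusted p = 0.0041, 0.051 under equal totals and 0.082 without replicate 3 of all groups). Of 9 genes of FGF receptors and hedgehog signaling, 5 fell with starvation and 1 rose, with a median of -1.15, and the falls included GLI1 (-2.40), GLI2 (-1.81), PTCH1 (-1.28) and SMO (-1.15). Of 9 Wnt genes 4 fell, among them WNT10B (-2.35), SFRP1 (-1.83) and AXIN2 (-1.25). WNT10B had only 1.10 to 5.62 normalized counts in starved libraries, near the floor of 3 reads. A minimum mean of 50 dropped all 4 Wnt genes that fell before testing, and 0 of the remaining Wnt genes were called. That setting therefore says nothing about these falls. Of the genes by which osteoblasts act on osteoclasts, 4 of 4 tested fell, namely EPHB4 (-0.97), SEMA3A (-0.88), TNFRSF11B (osteoprotegerin, -0.77) and CSF1 (-0.68). The calls of the last 3 depended on single libraries. SEMA3A was lost without Ars replicate 3 or starved replicate 3, TNFRSF11B without Ars replicate 1 or 3 or starved replicate 2, and CSF1 without starved replicate 1, with limma adjusted p of 0.058 to 0.14 for SEMA3A and TNFRSF11B and a log2 fold change of -0.51 for CSF1. With glutamine 2 of 4 were called, TNFRSF11B (0.92) and CSF1 (0.71), both higher, against 1 without starved replicate 1 or 2 or glutamine-recovered replicate 3 and 0 without glutamine-recovered replicate 2 (limma adjusted p = 0.058 and 0.069).

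**Figure D4:**
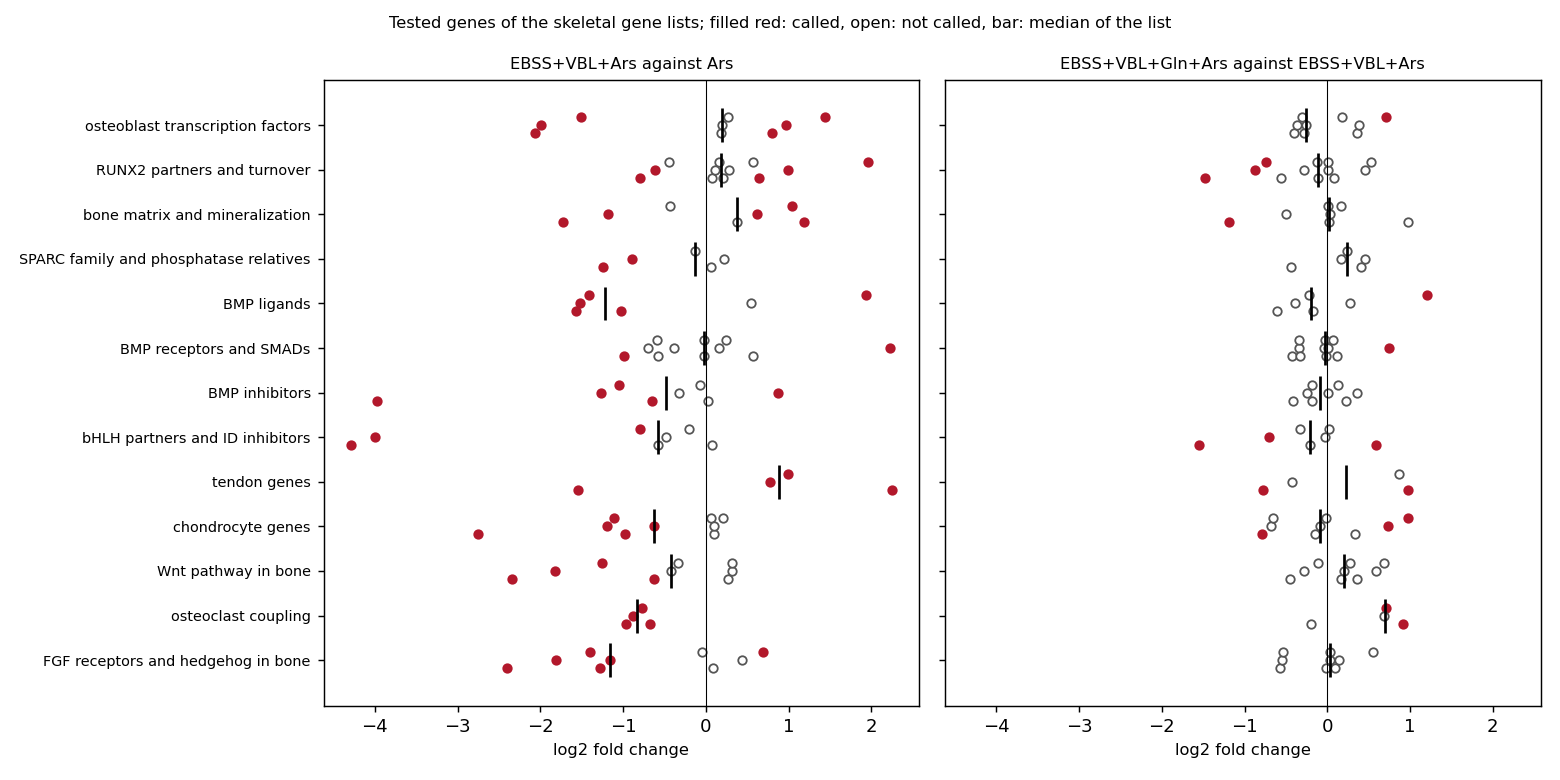
Log2 fold changes from limma of the tested genes of 13 skeletal gene lists, 1 point per gene, in EBSS+VBL+Ars against Ars cells (left) and EBSS+VBL+Gln+Ars against EBSS+VBL+Ars cells (right), with a bar for the median of each list. Red points were called, and the median was lowest with starvation for BMP ligands (-1.22) and for FGF receptors and hedgehog genes (-1.15).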

How the data were processed

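The members and gene lists were chosen with earlier results of these data known. Per the labels and the paper's methods, ribosomal RNA was depleted, reads of U2OS cells were aligned to hg38 with STAR, counted per gene with HTSeq and normalized with DESeq2. Their versions, the annotation and the strand setting are not stated in those sources. As deposited by the authors, the signal values hold 1 normalized count for each gene and library. All values (100%) were whole multiples of the value of 1 read, within 0.01 reads, which gave the reads back. Values at low reads are the least precise.

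Genes with a mean of at least 10 over the 9 replicated libraries (12971) were tested with limma 3.58.1 in R 4.3.3 (eBayes with trend, log2(normalized count + 1), 2-sided, Benjamini-Hochberg over all of them), with all 3 groups sharing 1 estimate of the spread. Calls needed an adjusted p under 0.05 and 1.5-fold, the study's thresholds. edgeR 4.0.16 on the recovered reads called 5607, 2134 and 4321 genes for starved against Ars, glutamine-recovered against starved and glutamine-recovered against Ars cells, and DESeq2 1.42.0 called 5325, 1887 and 3988. Only the limma fit of EBSS+VBL+Ars against Ars cells was also run on simulated counts, and the edgeR and DESeq2 fits were not.

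Gene positions and exon lengths came from GENCODE 44 (hg38), which matched 60401 of 60671 IDs. All 7 members were named. Genes named from each list came from up to 4 with the smallest p for starvation and up to 3 for glutamine. Not all of these are named in the text. Neighbors within 50000 bases, TWIST2 and CBFB were chosen after their values were seen. Genes most alike in level were named by Pearson's r. Intervals for the untreated library are exact Poisson intervals and, like the floor of 3 reads, cover counting error only. Figures used matplotlib 3.10.9 in Python 3.11.15.

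Alternatives were pseudocounts of 0.5 and 5, no filter, a minimum mean of 50, quantile normalization, equal totals, a fit of just the 2 groups, a block for the replicate number, removal of the trend with GC content, edgeR, DESeq2 and each library left out in turn. Leaving out replicate 3 of all groups and using Ars replicate 1 or 3 alone were chosen after seeing the data.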

Additional observations from a re-analysis of the deposited data

How the results depend on the processing

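For EBSS+VBL+Ars against Ars cells, 3 members were called under every alternative run, leave-one-out fits included. For EBSS+VBL+Gln+Ars against EBSS+VBL+Ars cells, where 1 was called, the count was 4 with equal totals, 2 with quantile normalization, 0 with the GC trend removed with or without the replicate block (RUNX2 had a log2 fold change of 0.577 there, under 1.5-fold), and 0 to 1 with libraries left out, 0 being without replicate 3 of all groups. Over all 12971 genes, 3166 were called with equal totals, 1885 with quantile normalization and 1695 with the GC trend removed, against 2201 with the settings of the report. With the settings of the report, the unadjusted limma p was 0.00020 for RUNX2, 0.021 for ALPL and 0.0042 for SPARC in this comparison, and edgeR and DESeq2 called 1 member each. For EBSS+VBL+Gln+Ars against Ars cells, 2 or 3 were called, BMPR1B being the call lost. The count of 5 members 1.5-fold from the untreated library was 4 to 5 with Ars libraries left out, MSX2 being the one lost.

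Signs turned for MSX2 in EBSS+VBL+Ars against Ars cells with equal totals (-0.079) and without starved replicate 1 (-0.094, in a range of -0.094 to 0.197 with libraries left out), and for BMPR1B without starved replicate 3 (-0.071, in a range of -0.071 to 0.499). In EBSS+VBL+Gln+Ars against EBSS+VBL+Ars cells, signs turned for SCX with equal totals (0.0037) and with the GC trend removed (0.067, with the block as well), for LRP5 under the same settings (0.0059 and 0.0066) and for TWSG1 with the GC trend removed (-0.053). None of these was called. The ratio of Ars to untreated for BMPR1B was 0.7445 to 1.01 with 1 Ars library left out, turning above 1 without Ars replicate 1 or 2, and 1.27 with Ars replicate 3 alone. The causes were not tested.

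Replicate numbers were not read as pairs. For libraries with equal numbers, deviations from the group means had correlations of -0.0635 to 0.309, over 0.1 in 4 of 9 pairs. For libraries with different numbers, the correlations were -0.313 to 0.208, over 0.1 in 4 of 18 pairs. In the column headings, replicate 3 of each group and the untreated library carry the lowest running numbers. With the replicate number as a block, 3, 1 and 3 members were called in the comparisons above, as without it, and 5634, 2385 and 4223 genes. Depth limits BMPR1B most, which rests on 6 to 37 reads per library, and SCX outside Ars cells, on 12 to 30 reads.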

Other observations

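Genes beside the members were read after their values were seen. HDAC9, a deacetylase gene that ends 18575 bases from TWIST1 and is known to hold enhancers of TWIST1, had 273, 239 and 307 normalized counts in EBSS+VBL+Gln+Ars libraries and 270, 274 and 218 in EBSS+VBL+Ars libraries, against 54.0, 39.1 and 51.1 in Ars libraries, with 92.2 in the untreated library. HDAC9 rose in EBSS+VBL+Ars against Ars cells (log2 fold change 2.38, SE 0.15, limma adjusted p = 2.2e-10), while TWIST1 had 0 reads in all these libraries.

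RAP1GAP, a regulator of a small GTPase that lies 17811 bases from ALPL, moved the opposite way to ALPL. It had 47.6, 54.4 and 40.4 normalized counts in EBSS+VBL+Gln+Ars libraries and 42.7, 38.4 and 48.6 in EBSS+VBL+Ars libraries, against 89.8, 111 and 116 in Ars libraries, with 38.04 in the untreated library. Its log2 fold change in EBSS+VBL+Ars against Ars cells was -1.26 (SE 0.18, limma adjusted p = 1.0e-05). NBPF3, 24392 bases from ALPL, was also called lower there (-0.72, SE 0.25, limma adjusted p = 0.020). UNC5C, 4056 bases from BMPR1B, was too low to test.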
